A study of Mus musculus with 6 samples.

Results

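The straight-chain acyl-CoA dehydrogenases of 3T3-L1 adipocytes were examined after treatment with recombinant murine interleukin-15 (rmIL-15). The 7 genes, *Acadvl*, *Acadl*, *Acadm*, *Acads*, *Acad9*, *Acad10* and *Acad11*, were taken by name and enzyme class from the 84 gene wells of a real-time PCR plate for murine fatty acid metabolism. Their values were not used in the choice, but earlier results of these data were known. The 3T3-L1 line is a mouse preadipocyte line that turns into fat-storing cells under an induction medium with insulin, dexamethasone and IBMX. On day 14 of differentiation, 3 samples were exposed over 24 hours to rmIL-15 at 500 ng/ml and 3 samples were left untreated (0 ng/ml), with 400 ng of RNA and 1 plate of 96 wells per sample. Both groups are one cell line without genetic change, and whether each sample came from its own culture is not stated in any source. The spread behind the p-values may therefore be technical. Groups were assigned by sample title, which the tables' group names match. A further label, the activation agent, names the groups the other way round, and with it every sign given here would turn.

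Acyl-CoA dehydrogenases are flavoproteins that open each round of beta oxidation by drawing electrons from an activated fatty acid and handing them to the electron transfer flavoprotein. The family divides the work by the length of the acyl chain: as the fatty acid is shortened, it passes from the very-long-chain enzyme (*Acadvl*) and the long-chain enzyme (*Acadl*) to the medium-chain (*Acadm*) and short-chain (*Acads*) enzymes. *Acad9* is known chiefly as an assembly factor of respiratory complex I, and *Acad10* and *Acad11* encode large, less characterised members that carry an added kinase-like domain. White adipocytes mainly store fat, but hold mitochondria that oxidise part of it.

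The samples carried adipocyte transcripts. *Fabp4*, the fatty acid binding protein of fat cells, crossed the threshold at 16.4 to 17.1 cycles, and *Lpl*, *Gpd1*, *Lipe*, *Acsl1* and *Slc27a1* did so by 25.3 cycles in all 6 samples. A lower Ct, the cycle at which a well crosses the fluorescence threshold, means more RNA. Of genes of other cell types on the plate, *Fabp1* was under 35 cycles in 0 samples and *Fabp2* in 4, while the muscle genes *Fabp3* (31.0 to 31.9 cycles) and *Cpt1b* (30.6 to 31.6 cycles) were late in every sample. In such bulk RNA, fewer cells that use a gene and less RNA per cell cannot be told apart.

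The promoters of *Acadm* and *Acadvl* are shown, the 2 of the family that held a half-site for nuclear receptors. This class of factor is known to drive fatty acid oxidation genes. *Acadm* was also picked for the most negative change of the 7 genes, which did not pass an adjusted p under 0.05 (below). Each run is the 250 bases before the annotated start in RefSeq (build GRCm38.p6), read along the gene, and capitals mark the half-site in *Acadvl* and, in *Acadm*, the longer element that contains it.
Acadm, chr3:153944644-153944893, minus strand: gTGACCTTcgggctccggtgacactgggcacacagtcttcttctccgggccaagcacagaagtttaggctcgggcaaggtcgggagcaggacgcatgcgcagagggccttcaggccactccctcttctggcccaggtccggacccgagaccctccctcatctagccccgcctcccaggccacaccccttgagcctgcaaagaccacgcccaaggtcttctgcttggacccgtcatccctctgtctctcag
Acadvl, chr11:70015429-70015678, minus strand: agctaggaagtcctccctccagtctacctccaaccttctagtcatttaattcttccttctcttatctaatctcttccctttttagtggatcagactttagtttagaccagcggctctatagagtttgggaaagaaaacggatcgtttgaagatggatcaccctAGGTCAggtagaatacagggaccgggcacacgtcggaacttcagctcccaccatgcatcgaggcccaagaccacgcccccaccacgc
A promoter was found for 6 of the 7 genes, all but *Acad9*, and 4 motifs were searched on both strands. The half-site AGGTCA, present in 14.0% of 32851 mouse promoters cut to the same length, lay at -87 to -82 in *Acadvl*. In *Acadm* it lay at -249 to -244 on the opposite strand, inside the longer AAGGTCA, the core of the element bound by estrogen-related receptors, which 4.08% of promoters held. *Acadm* also held the NRF1 core GCATGCGC (2.26% of promoters) at -158 to -151, and *Acad10* held it at -8 to -1 on the opposite strand. The GC box GGGCGG, found in 32.7% of promoters, occurred at 4 places in *Acadl* and at 1 place each in *Acads* and *Acad11*. GC content was 79.6% for *Acad10*, 68% for *Acadl*, 64% for *Acadm*, 60.4% for *Acads*, 58.4% for *Acad11* and 49.6% for *Acadvl*, beside a median of 52.4% over all promoters. These matches describe the letters of the windows, and binding was not measured. Whether any motif bears on a change in RNA was not tested.

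All 7 dehydrogenases were measured well within the range of the assay, with every Ct under 27 cycles, and they fell into an early and a late set on every plate. The early set held the enzymes of medium, long and very long chains. *Acadm* had Ct values of 22.8, 22.1 and 22.3 in rmIL-15 treated cells, against 21.7, 21.8 and 22.6 in untreated cells. *Acadl* had 22.5, 22.4 and 22.6 in treated cells, against 22.3, 22.3 and 22.4 in untreated cells, the narrowest range of the family (0.35 cycles over 6 plates). *Acadvl* had 22.9, 22.5 and 22.7 in treated cells, against 22.3, 22.4 and 23.2 in untreated cells. All 3 genes were thus within about a cycle of one another on each plate, and the raw values of each overlapped between the groups.

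The late set held the short-chain enzyme and the 3 newer members. *Acad9* had Ct values of 25.1, 24.6 and 24.7 in treated cells, against 24.4, 24.4 and 25.0 in untreated cells. *Acads* had 25.3, 24.6 and 25.0 in treated cells, against 24.4, 24.7 and 26.5 in untreated cells, the widest range of the 7 genes (2.05 cycles over 6 plates). Untreated replicate 3 was the latest untreated sample for all 7 genes, by the most for *Acads*. *Acad11* had 25.5, 24.8 and 24.9 in treated cells, against 24.8, 24.9 and 25.7 in untreated cells. *Acad10*, the latest of the family on every plate, had 26.3, 25.6 and 25.9 in treated cells, against 25.4, 25.6 and 26.9 in untreated cells. Raw values of all 4 genes overlapped between the groups.

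**Figure D1:**
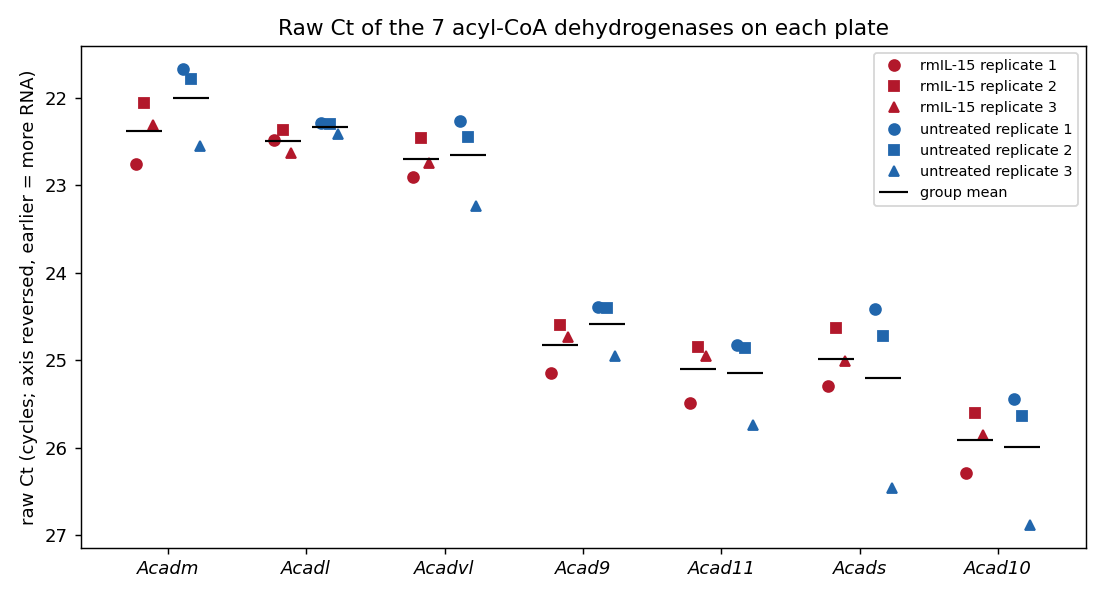
Threshold cycle (Ct, vertical axis, in cycles, reversed so that more RNA is higher) of the 7 dehydrogenases on each plate, with rmIL-15 treated samples left of untreated samples for each gene and a bar at the group mean. *Acadm*, *Acadl* and *Acadvl* lie between 21.7 and 23.2 cycles, and the other 4 genes between 24.4 and 26.9 cycles.

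The gap between the latest of the early set and the earliest of the late set was 2.24, 2.14 and 1.99 cycles on the treated plates, against 2.10, 1.95 and 1.72 cycles on the untreated plates. The split by level was therefore present on all 6 plates. The 2 sets were drawn by mean Ct over these same plates, so the gaps describe the split and do not test it. Within each set the order was less firm. Neighbours were called apart where their Ct difference had one sign on all plates of a group and its mean exceeded its SD. By that rule *Acadm* and *Acadl* could not be ordered in either group (0.12 ± 0.34 cycles in treated cells and 0.33 ± 0.41 cycles in untreated cells, SD, n = 3 each). *Acadl* was ahead of *Acadvl* by 0.21 ± 0.19 cycles in treated cells, while the pair was not apart in untreated cells (0.32 ± 0.45 cycles). *Acads* and *Acad11* were not apart in either group, and *Acad10* followed them in both. These are single wells per gene with SYBR green, for which the sources used here give no efficiencies, so differences between genes are approximate levels under an assumed doubling per cycle. In the RefSeq annotation *Acad12* neighbours *Acad10*. Whether the *Acad10* assay separates the 2 genes is not stated in the sources used.

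In each group 1 plate was later than the rest, and the dehydrogenases were moved by it to unequal extents. The plate of treated replicate 1 was later than the mean of treated replicates 2 and 3 by a median of 0.35 cycles over the 74 genes tested, and the plate of untreated replicate 3 was later than the mean of untreated replicates 1 and 2 by 0.60 cycles. *Acads* was later by 0.48 cycles on the treated plate and by 1.89 cycles on the untreated plate, where it ranked 2 of 74 genes by lateness. *Acad10* was later by 0.56 and 1.34 cycles on the same plates. The short-chain enzyme and *Acad10* thus stood out on the late untreated plate. *Acadl* lay at the other end, with -0.02 cycles on the treated plate and 0.12 cycles on the untreated plate, rank 58 of 74. *Acadm*, *Acadvl* and *Acad11* were later by 0.31 to 0.59 cycles on the treated plate and by 0.83 to 0.90 cycles on the untreated plate, and *Acad9* by 0.48 and 0.56 cycles. The well annotated *Gapdh*, used for normalization, was later by 0.29 and 0.76 cycles. The positive PCR control moved by less than 0.1 cycle on both plates, while the reverse transcription control was later by 0.51 and 0.38 cycles. The part of these plates in the results below was measured by leaving them out.

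**Figure D2:**
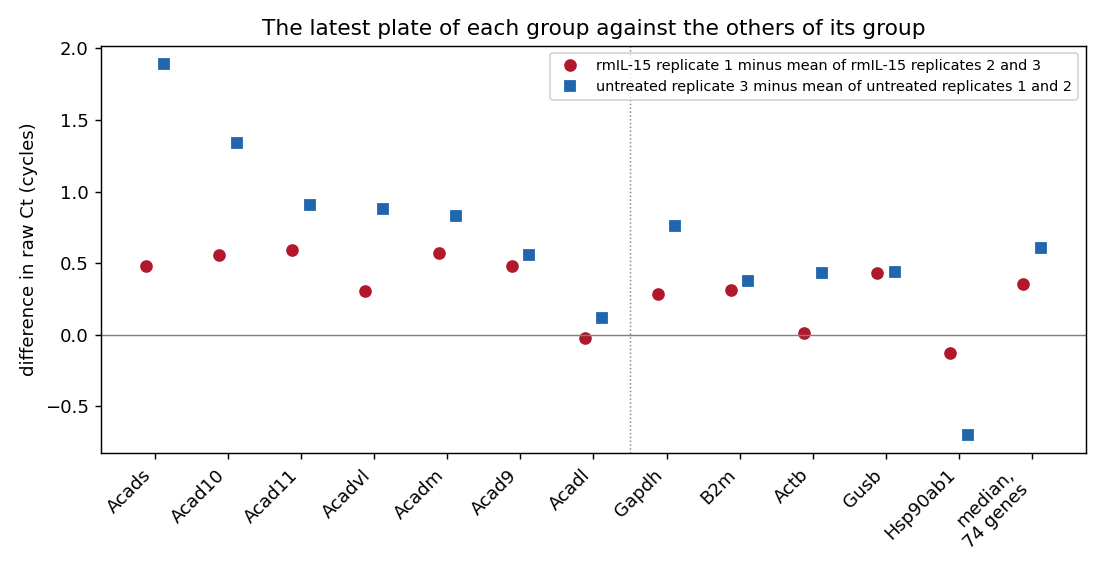
Raw Ct of the latest plate of each group minus the mean of the other 2 plates of that group (vertical axis, cycles) for the 7 dehydrogenases, left of the dotted line, and for the 5 reference wells and the median of 74 genes, with rmIL-15 replicate 1 (circles) left of untreated replicate 3 (squares). *Acads* reaches 1.89 cycles on the untreated plate and *Acadl* stays at 0.12 cycles.

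The effect of rmIL-15 on each enzyme was tested on Ct values taken relative to the well annotated *Gapdh* of the same plate (delta Ct, where a lower value is more RNA), with limma across the 74 genes that were under 35 cycles in every sample of at least 1 group. The log2 fold changes are of treated over untreated cells. Of the 7 dehydrogenases, 0 passed an adjusted p under 0.05, as did 0% of all genes tested. The methods' t-test also gave 0. At an unadjusted p under 0.05, 1 of the 7 was lower in treated cells (*Acadm*), beside 8.11% of genes tested. Relative to the well annotated *Gapdh*, it was also the 1 member whose groups did not overlap, beside 14.9% of genes lower without overlap. With the deposited values, which use the B2m well, the groups of *Acadm* overlapped. In sign, 4 of the 7 were lower, beside 71.6% of genes tested, and the median log2 fold change was -0.08 for the family and -0.11 for all genes tested. A change of at least 1.2-fold was measured for 2 of the 7 genes, both lower (*Acadm* and *Acad9*), beside 13 lower and 8 higher among the 74 genes. As a family, the dehydrogenases lay near the background of the plate.

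*Acadm*, the medium-chain enzyme, had delta Ct values of -2.87, -3.10 and -3.21 in treated cells, against -3.58, -3.39 and -3.41 in untreated cells. Every treated sample was thus later, relative to the well annotated *Gapdh*, than every untreated sample. The means were -3.06 ± 0.17 in treated cells and -3.46 ± 0.10 in untreated cells (SD, n = 3 each), a log2 fold change of -0.40 (SE 0.13, 95% interval -0.73 to -0.07), or 0.758 of the untreated level. The limma p was 0.0255 before adjustment and 0.47 after Benjamini-Hochberg adjustment over the 74 genes. The two-sided exact permutation test gave p = 0.1, the smallest that 3 samples against 3 allow. The adjusted p ranged between 0.354 and 0.902 over the alternatives run. Leaving out treated replicate 1, treated replicate 2 or untreated replicate 1 raised the unadjusted limma p to 0.0653, 0.0605 and 0.0806, and leaving out both late plates gave 0.0634. The unadjusted p under 0.05 also depended on the reference: it was 0.0907 with B2m (and with the deposited values, which use it), 0.106 with the mean of the 5 reference wells, 0.121 with Gusb, 0.141 with Actb, 0.229 with Hsp90ab1 and 0.0508 with plate median centring, while the log2 fold change lay between -0.75 and -0.30. With the replicate number as a block it was 0.0775. Relative to B2m the *Acadm* groups overlapped. Delta Ct was then 4.03, 3.71 and 3.85 in treated cells, against 3.36, 3.30 and 3.78 in untreated cells. The well annotated *Gapdh* itself was late, at 25.6, 25.2 and 25.5 cycles in treated cells, against 25.2, 25.2 and 26.0 cycles in untreated cells, and the other 4 reference wells crossed the threshold by 20.5 cycles on every plate.

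*Acad9*, the complex I assembly factor, had delta Ct values of -0.48, -0.56 and -0.78 in treated cells, against -0.86, -0.78 and -1.02 in untreated cells. The groups met at a single point, where the lowest treated value lay just below the highest untreated one. The log2 fold change was -0.27 (SE 0.13, 95% interval -0.60 to 0.06; limma adjusted p = 0.58), or 0.827 of the untreated level. It stayed negative with every other reference, with plate median centring and whenever samples were left out, between -0.62 and -0.14. Alternatives that changed only the Ct limit, the filter or the test could not move this value.

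The 2 enzymes of the longest chains did not separate by treatment. *Acadl* had delta Ct values of -3.14, -2.79 and -2.88 in treated cells, against -2.96, -2.88 and -3.56 in untreated cells, and the log2 fold change was -0.20 (SE 0.22, 95% interval -0.74 to 0.35; limma adjusted p = 0.82). The lowest of its untreated values came from replicate 3, in which *Acadl* was not late while *Gapdh* was, and without that sample the log2 fold change was 0.017. *Acadvl* had delta Ct values of -2.72, -2.70 and -2.78 in treated cells, against -2.98, -2.73 and -2.73 in untreated cells. With a log2 fold change of -0.08 (SE 0.12, 95% interval -0.37 to 0.21; limma adjusted p = 0.82), *Acadvl* had the smallest SE of the family, and the log2 fold change was -0.00011 without untreated replicate 1.

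The short-chain enzyme and the kinase-domain members had positive values, with intervals that included 0. *Acads* had delta Ct values of -0.33, -0.53 and -0.51 in treated cells, against -0.83, -0.45 and 0.49 in untreated cells. The treated samples lay close together inside the wide spread of the untreated ones, whose SD was 0.68 (0.11 in treated cells), and the log2 fold change of 0.19 (SE 0.34, 95% interval -0.66 to 1.04; limma adjusted p = 0.87) became -0.19 without untreated replicate 3. *Acad10* had delta Ct values of 0.66, 0.44 and 0.34 in treated cells, against 0.20, 0.46 and 0.91 in untreated cells, with a log2 fold change of 0.04 (SE 0.21, 95% interval -0.48 to 0.57; limma adjusted p = 0.95). It was -0.15 without untreated replicate 3 and -0.03 without treated replicate 3. *Acad11* had delta Ct values of -0.14, -0.31 and -0.57 in treated cells, against -0.42, -0.32 and -0.22 in untreated cells, with a log2 fold change of 0.02 (SE 0.15, 95% interval -0.35 to 0.38; limma adjusted p = 0.96). It became -0.09 without treated replicate 3 and -0.03 without untreated replicate 3. Relative to the well annotated *Hsp90ab1*, whose Ct was 18.5, 18.7 and 18.6 on the treated plates, against 19.5, 18.9 and 18.5 on the untreated plates, all 3 genes were negative (-0.16 for *Acads*, -0.30 for *Acad10* and -0.33 for *Acad11*).

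**Figure D3:**
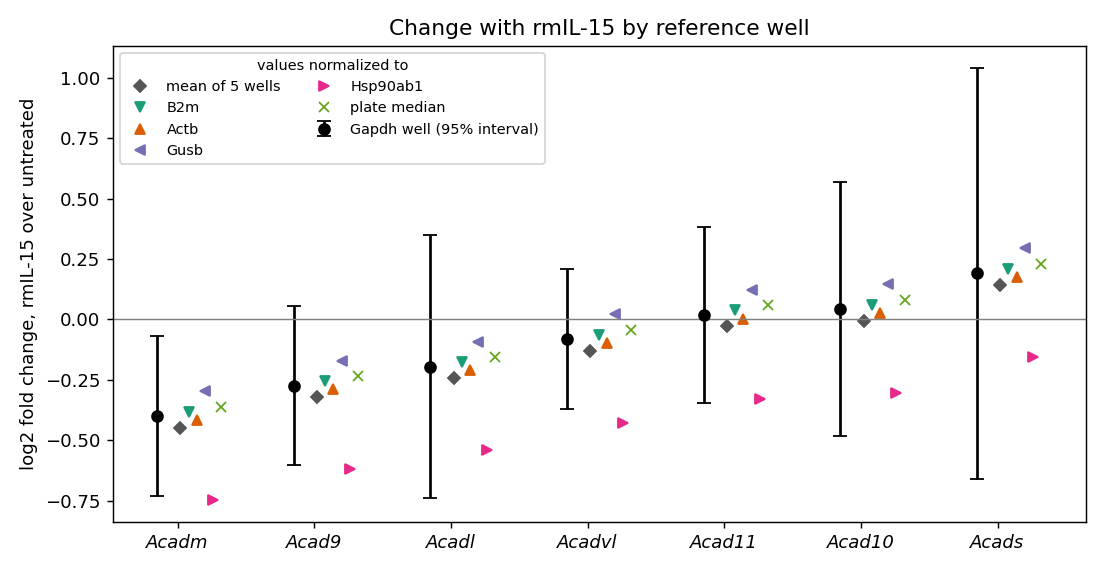
Log2 fold change (vertical axis, rmIL-15 treated over untreated) of the 7 dehydrogenases, with black points and 95% intervals from limma for values relative to the well annotated *Gapdh* (n = 3 samples a group) and coloured points for other reference wells and the plate median. The interval of *Acadm*, -0.73 to -0.07, lies below 0 and the other 6 intervals include 0, while a change of reference moves all 7 genes by the same amount, furthest down with Hsp90ab1.

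Which enzymes changed relative to one another was measured from Ct differences within a plate, which need no reference well. Of the 21 pairs of dehydrogenases, 5 had differences that did not overlap between the groups (23.8%), beside 14.6% of the 2701 pairs of tested genes. *Acadm* took part in 4 of those 5 pairs. Pairs that share a gene are not independent, and each of the 5 had the smallest exact permutation p that the design allows, 0.1 (two-sided), or 0.69 after Benjamini-Hochberg adjustment over all pairs. Without both late plates, which leaves 2 plates a group, 10 of 21 pairs did not overlap, beside 46.2% of all pairs.

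*Acadm* minus *Acad11* was the tightest of these differences, at -2.73, -2.78 and -2.64 cycles in treated cells, against -3.15, -3.07 and -3.19 cycles in untreated cells. The lead of the medium-chain enzyme over *Acad11* was thus shorter on every treated plate, by 0.42 cycles, and by 0.40 cycles without both late plates. *Acadm* minus *Acad10* was -3.53, -3.54 and -3.55 cycles in treated cells, against -3.77, -3.85 and -4.32 cycles in untreated cells. *Acadm* minus *Acads* was -2.54, -2.57 and -2.70 cycles in treated cells, against -2.74, -2.94 and -3.90 cycles in untreated cells. Much of both differences lay in the late plates: they were 0.44 cycles for *Acad10* and 0.59 cycles for *Acads* with all plates, and 0.27 and 0.21 cycles without those 2. *Acadvl* minus *Acadm* was 0.15, 0.40 and 0.43 cycles in treated cells, against 0.60, 0.66 and 0.68 cycles in untreated cells, so the very-long-chain enzyme lay closer behind the medium-chain enzyme in treated cells by 0.32 cycles, and by 0.21 cycles without both late plates. The pair without *Acadm* was *Acad9* minus *Acad11*, at -0.35, -0.25 and -0.22 cycles in treated cells, against -0.44, -0.46 and -0.79 cycles in untreated cells.

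The differences of *Acadm* from *Acadl* and from *Acad9* overlapped between the groups. *Acadl* minus *Acadm* was -0.27, 0.31 and 0.33 cycles in treated cells, against 0.62, 0.50 and -0.15 cycles in untreated cells, with the late plate of each group as the sample of the opposite sign. Set against the mean Ct of the other 6 dehydrogenases, *Acadm* lay at -1.84, -2.02 and -2.01 cycles in treated cells, against -2.27, -2.27 and -2.39 cycles in untreated cells, and these values did not overlap between the groups. That held for 1 of the 7 genes, beside 9.46% of the 74 genes tested when each was set against the mean of the dehydrogenases other than itself.

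**Figure D4:**
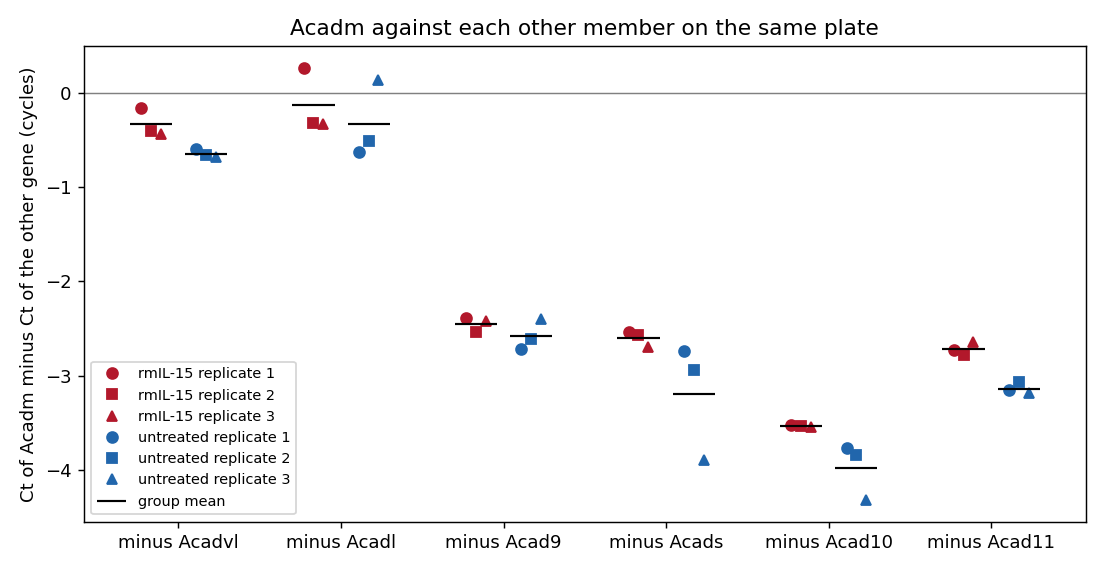
Ct of *Acadm* minus the Ct of each other dehydrogenase on the same plate (vertical axis, cycles), with rmIL-15 treated plates left of untreated plates. The groups do not overlap against *Acadvl*, *Acads*, *Acad10* and *Acad11*, and overlap against *Acadl* and *Acad9*.

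Within a group, the dehydrogenases deviated together to different degrees. The SD of a pair's Ct difference over the plates, pooled over both groups, had a median of 0.275 cycles over the 21 pairs, beside 0.372 cycles over all pairs of tested genes. It was lowest for *Acadm* with *Acad11* (0.067 cycles) and highest for *Acadl* with *Acads* (0.760 cycles). After each plate was centred on its median Ct and each gene on its mean, the genes outside the family with profiles nearest to *Acadm* over the 6 plates were *Lpl* (root mean square difference 0.078 cycles), *Decr1* (0.087 cycles) and *Cpt2* (0.094 cycles), beside a median of 0.268 cycles over 67 genes. *Lpl* encodes lipoprotein lipase, *Decr1* the reductase that prepares unsaturated chains for beta oxidation, and *Cpt2* the inner carnitine palmitoyltransferase. Nearest to *Acad9* were *Hadha* (0.030 cycles), the alpha subunit of the trifunctional protein, *Prkaca* (0.051 cycles), a catalytic subunit of protein kinase A, and *Lpl* (0.055 cycles), beside a median of 0.249 cycles. All profiles share the same 6 plates and RNA samples. They span both groups, so a shared difference between the groups also brings profiles together. *Acadm* and *Acad9* were taken as the members with the smallest limma p.

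Genes of the neighbouring steps were read from the same limma fit. None of their lists held a gene past an adjusted p under 0.05, and at an unadjusted p under 0.05 there was 1 (*Acox2*), lower in treated cells. The signs below stand beside 71.6% of all genes tested that were lower, with a median of -0.11. With Gusb as the reference, 38 of the 74 genes were lower. Of the branched-chain and other acyl-CoA dehydrogenases, 2 were on the plate and both were lower in sign. *Acadsb*, the short/branched-chain enzyme, had delta Ct values of -1.74, -1.58 and -1.73 in treated cells, against -1.83, -1.68 and -2.10 in untreated cells (log2 fold change -0.19, SE 0.15, limma adjusted p = 0.69). Its groups overlapped. The 3 acyl-CoA oxidases, which open beta oxidation in peroxisomes, were all lower in sign, with a median of -0.04. *Acox2*, the oxidase for branched chains and bile acid precursors, had delta Ct values of 3.11, 2.96 and 3.19 in treated cells, against 2.35, 2.51 and 2.43 in untreated cells, without overlap (log2 fold change -0.66, SE 0.11, limma unadjusted p = 0.00143, adjusted p = 0.11). Of the later steps of mitochondrial beta oxidation, 5 were tested and all 5 were lower in sign, with a median of -0.20, and *Hadha* had the smallest p (log2 fold change -0.23, SE 0.14, limma adjusted p = 0.60). The carnitine shuttle had 6 tested genes, of which 5 were lower and 1 higher in sign, with a median of -0.09, and *Cpt2* had the smallest p (log2 fold change -0.27, SE 0.13, limma adjusted p = 0.58). The electron transfer flavoprotein genes, which take the electrons of all these dehydrogenases, had 0 wells on the plate.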

How the data were processed

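Total RNA was extracted on RNeasy columns with DNase, reverse transcribed (400 ng) and run as 1 SYBR green array plate per sample. Raw, unnormalized Ct values (cycles) were deposited by the authors. The authors also deposited normalized values on a log2 scale, with Ct capped at 35 and a reference subtracted. Averaged housekeeping genes are named in the header and GAPDH in the methods, but the reference that gives these values is the B2m well (largest difference 3.6e-15 cycles). The annotation of reference wells is therefore in doubt, and they are called by it only. A table with the authors' own comparison was not used, nor were 6 further per-sample columns, headed as the linear form of the same values. Amplification efficiencies are not stated in the sources used.

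From the raw Ct, values above 35 and undetermined wells were set to 35, the well annotated Gapdh was subtracted, and limma 3.58.1 (R 4.3.3) compared 3 rmIL-15 with 3 untreated samples over 74 of 84 genes (under 35 cycles in all 3 samples of at least 1 group), with Benjamini-Hochberg adjustment at 0.05. Exact permutation tests used SciPy 1.17.1. The limma step was tested on simulated data with planted effects larger than the change of any member. That test does not show how often changes of the size reported here would be found. The members, lists and tests were chosen with earlier results of these data known. Named genes were the 7 members, Acadsb, the gene with the smallest p in each pathway list, and the 3 nearest profiles of the 2 members with the smallest p. Alternatives were other reference wells, plate median centring, the deposited values, other limits on Ct, other filters, robust limma, the methods' t-test, a replicate block and leaving out samples. 1 marker gene of another cell type is not reported here. Promoters came from RefSeq (GRCm38.p6).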

Additional observations from a re-analysis of the deposited data

How the results depend on the processing

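Over 21 alternatives, 0 dehydrogenases passed an adjusted p under 0.05. Alternatives that changed only the limit on Ct, the filter, the test or the block left each member's log2 fold change as it was. The deposited values repeated those of B2m. The signs under these alternatives are therefore not separate checks. *Acadm* was lower in all 21 alternatives (log2 fold change between -0.75 and -0.30), with an unadjusted limma p or t-test p under 0.05 in 9. The count of members past that unadjusted threshold, 1 as reported, was 0 with the mean of the 5 reference wells, with B2m, Actb, Gusb or Hsp90ab1 alone, with plate median centring, with the deposited normalized values, with the replicate block, and with both late plates left out (chosen after seeing the data), and it was 0 to 1 when 1 sample was left out. The cause was not tested. Normalization to Hsp90ab1 moved the median of all genes to -0.46 (-0.11 as reported) and that of the members to -0.43, with 7 members lower in sign. It turned *Acads* to -0.16, *Acad10* to -0.30 and *Acad11* to -0.33. The mean of the 5 reference wells turned *Acad10* to -0.0054 and *Acad11* to -0.029, and Gusb turned *Acadvl* to 0.020. Without both late plates *Acads* was -0.12 and *Acad10* -0.063. Leaving out 1 sample gave *Acadvl* between -0.13 and -0.00011, *Acadl* between -0.32 and 0.017, *Acads* between -0.19 and 0.47, *Acad10* between -0.15 and 0.21, and *Acad11* between -0.095 and 0.12. *Acad9* kept its sign throughout.

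Same-numbered samples did not deviate together (correlations of -0.27, 0.092 and -0.28 over 74 genes). Such correlations over genes of single plates cannot show whether same-numbered samples were cultured or processed together. With the replicate block *Acadm* had an unadjusted limma p of 0.0775 and an adjusted p of 0.74, and 4 genes passed the unadjusted threshold (7 as reported). Counts of genes past it were 2 with Hsp90ab1, 3 with B2m, plate median centring or the deposited values, 4 without rmIL-15 replicate 1, and 5 to 8 elsewhere.

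With 3 samples a group, single wells and no efficiencies, the precision is that of the intervals given, and fold values assume a doubling per cycle.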
